A study of Saccharomyces cerevisiae with 18 samples.

Results

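A set of 10 genes of sulfate assimilation and methionine synthesis was followed in budding yeast with altered Rad6 or without Bre1. They were chosen by name, as rows of the deposited count table: SUL1, SUL2, MET3, MET14, MET16, MET10, MET5, MET17, MET2 and MET6. These are 10 of the 5746 genes in the table, and all 10 passed the filter on low counts.

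Yeast takes up sulfate through the permeases Sul1 and Sul2 and activates it with ATP through Met3 and Met14. Met16 reduces the activated sulfate to sulfite, and the sulfite reductase of Met10 and Met5, which needs a siroheme cofactor, carries it on to sulfide. Met17 joins sulfide to the O-acetylhomoserine made by Met2, giving homocysteine, which Met6 methylates to methionine. The activator Met4 reaches DNA through Cbf1, Met31 and Met32, and the ubiquitin ligase subunit Met30 restrains Met4 when sulfur compounds are plentiful. Rad6 is a ubiquitin-conjugating enzyme that, with the ligase Bre1, modifies histone H2B.

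The 6 strains were grown in 3 separate cultures each, at 30 °C in a synthetic medium that lacked tryptophan, and poly(A)-selected RNA was sequenced from all 18. All have the labelled mating type Mat a, trp1Δ and mutant alleles of HIS3, URA3 and LEU2, and no label names a deleted gene of the sulfur pathway. WT here means rad6Δ::KanMX cells with a centromeric TRP plasmid for tagged wild-type Rad6 (Rad6-3V5). P43L, P47T and E49K have that same chromosomal deletion and a plasmid with rad6P43L-3V5, rad6P47T-3V5 or rad6E49K-3V5, substitutions in the backside beta-turn of Rad6. The rad6Δ strain holds only pRS314 (TRP CEN) in place of a RAD6 plasmid. The bre1Δ::KanMX strain also holds pRS314 and is not labelled as deleted for RAD6, so besides lacking BRE1 it has untagged chromosomal Rad6 as far as the labels show. The labels give 1 strain per genotype, and the methionine content of the medium is not given in the sources used here. In RNA from whole cultures, less RNA of a gene per cell and fewer cells with that RNA cannot be told apart.

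Library totals ran from 5065845 to 11396251 counts. RAD6 had 3.75 to 4.77 CPM in rad6Δ and 93.4 to 188 CPM elsewhere, where CPM is counts per 1000000 of the library total scaled by TMM factors. BRE1 had 1.25 to 2.12 CPM in bre1Δ and 123 to 153 CPM in the other strains. Transcripts of mating type went against the label Mat a in all 18 libraries, with 1122 to 1960 CPM of the alpha-factor gene MF(ALPHA)1 and at most 3.31 CPM of both a-factor genes together. On the second principal component of all genes, bre1Δ replicate 3, P43L replicate 2 and P47T replicate 3 stood apart from the other libraries of their strain. Calls of the 10 genes that change without these 3 libraries are given with the adjusted p found without them.

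Levels per kilobase of coding sequence differed widely along the pathway. In WT, the sulfate permease gene SUL1 had 1.04 ± 0.181 CPM per kb (SD, n = 3), above only 0.976% of 5533 tested protein-coding genes. The methionine synthase gene MET6 had 660 ± 19.9 CPM per kb, above 96.1% of them. Between these ends, MET17 had 164 ± 3.95, MET14 53.1 ± 0.988, MET16 41.4 ± 6.05, MET10 29.2 ± 1.99, MET5 18.9 ± 0.239, MET3 15.5 ± 1.18, SUL2 7.37 ± 0.862 and MET2 2.81 ± 0.986 CPM per kb. The WT ranges of no 2 neighbours in this order overlapped. SUL1 and MET2 rest on 13 to 61 and 14 to 92 counts per library, so their folds are the least precise of the set.

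**Figure D1:**
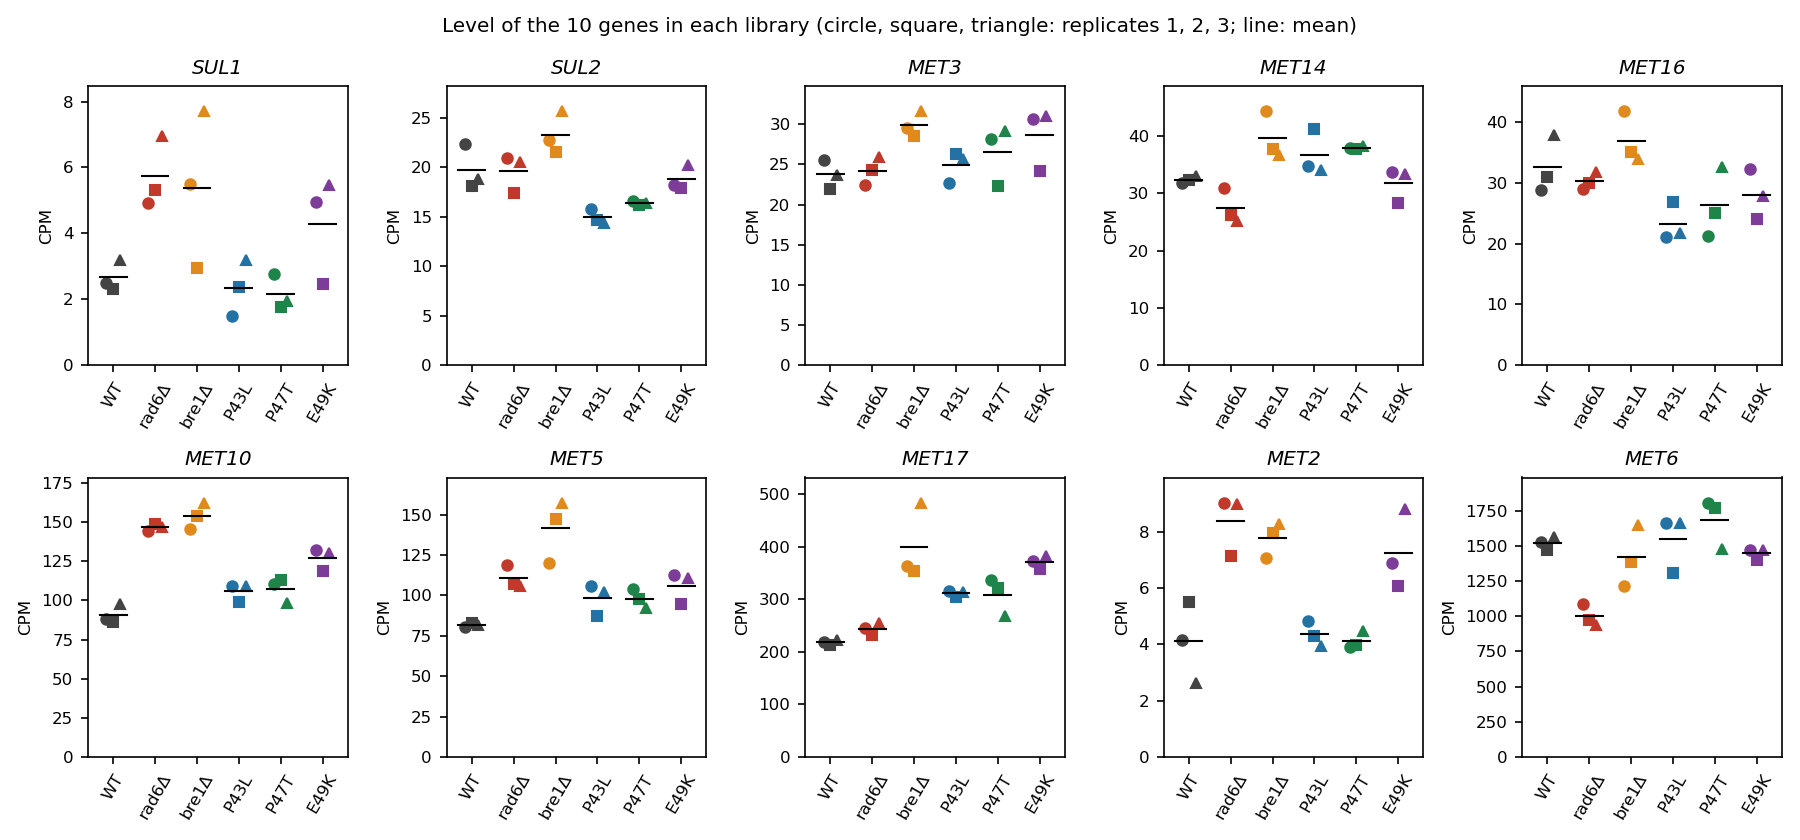
Level of each of the 10 genes (CPM, linear axis from 0) in the 18 libraries, by strain; symbols are replicates and lines are means over 3 libraries. For MET10, MET5 and MET17, all WT libraries lay below all mutant libraries. The means of MET3 and MET2 were also lowest in WT, but their libraries overlapped those of some mutants. MET6 was lowest in rad6Δ, at 940.1 to 1085 CPM against 1219 or more elsewhere.

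Across the comparisons with WT, which share the same 3 WT libraries, the genes fell into unlike patterns. In the test of all 5630 genes (edgeR quasi-likelihood, Benjamini-Hochberg adjusted p under 0.05), MET10, MET5 and MET17 rose in 4 of 5 mutants each and fell in none. MET2 rose in 3 and SUL1 in 2. MET3 and MET14 rose in 1, whereas SUL2, MET16 and MET6 fell in 1 and rose in none. How many of all tested genes were called as often in the same direction was not computed, so whether these tallies are unusual cannot be told.

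Against WT, rad6Δ had 4 of the 10 genes up and 1 down, where 49.7% of all tested genes were called in either direction. The share called was thus near that background, and the median log2 fold change of the 10 was 0.09 against 0.00 over all genes. In bre1Δ 7 rose and none fell, beside 44.4% of all genes called, with a median of 0.54 against 0.00. P43L had 1 gene up and 2 down (12.1% of all genes called; medians 0.04 and −0.02), P47T 3 up (27.9%; 0.15 and −0.01) and E49K 4 up (31.3%; 0.32 and −0.01). Without WT replicate 2, 4 members were called in bre1Δ. In P43L, 1 was called without P43L replicate 1 or 3 and 5 without P43L replicate 2. In P47T, 1 was called without WT replicate 1 or P47T replicate 1 or 2. With library totals alone as the scale, the median of all genes moved to −0.13 in P47T and −0.11 in bre1Δ, and the P47T count became 1 up (MET17) and 2 down (SUL2 and MET16). With median-ratio scaling the P43L count became 2 up and 2 down.

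**Figure D2:**
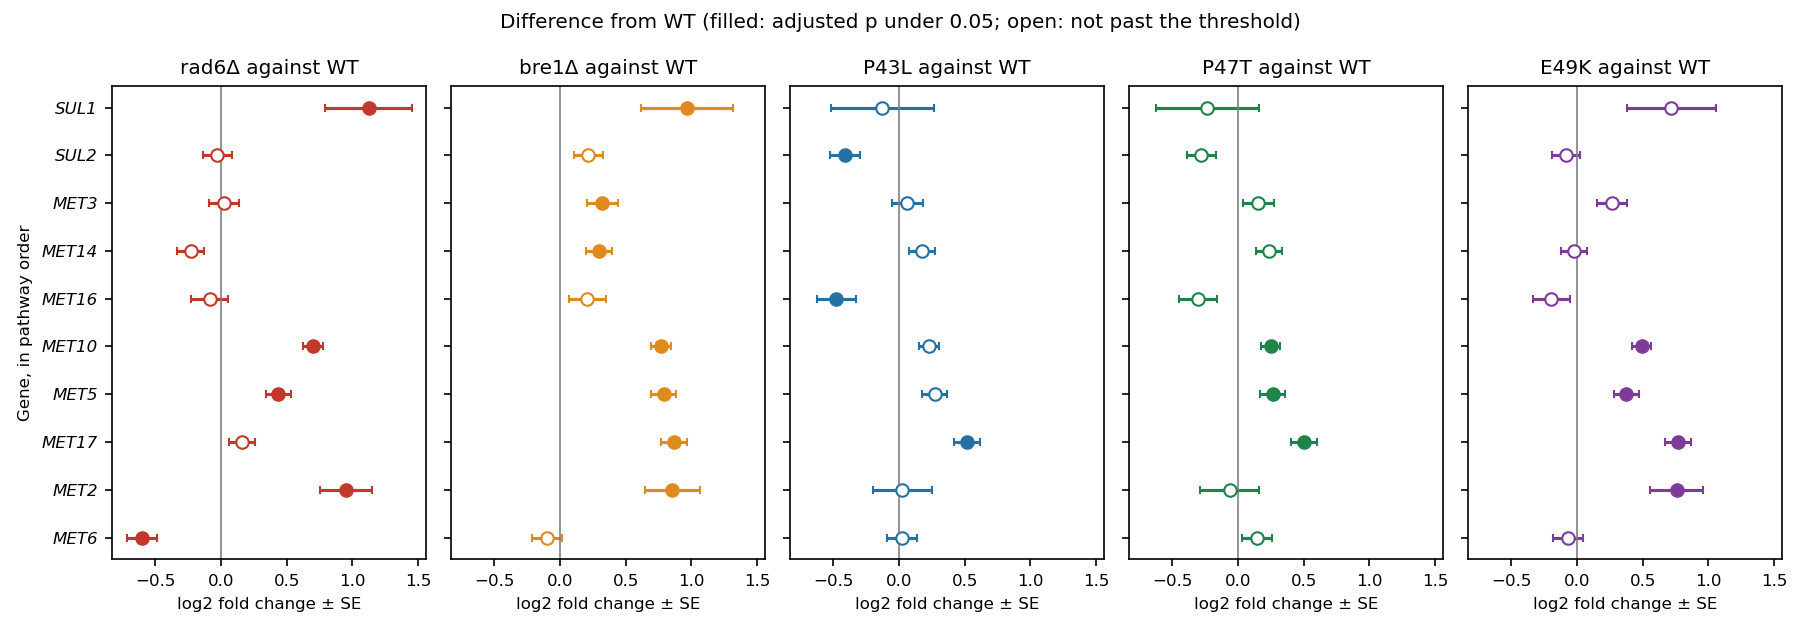
Log2 fold change against WT (x axis, ± SE) of the 10 genes in pathway order from sulfate uptake (top) to methionine synthesis (bottom), 1 panel per mutant; filled points passed the adjusted threshold. MET17 lay at 0.50 or more in bre1Δ, P43L, P47T and E49K and at 0.16 in rad6Δ, and MET6 lay at −0.60 in rad6Δ.

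MET10, of sulfite reductase, gave the lowest adjusted p of the set. MET10 (YFR030W, chromosome VI, 213312 to 216419 in R64, plus strand, 1 coding exon) encodes the alpha subunit, and MET5 (YJR137C, chromosome X, 678957 to 683285, minus strand, 1 coding exon) the beta subunit. MET17 (YLR303W, chromosome XII, 732542 to 733876, plus strand, 1 coding exon) encodes the enzyme that takes up the sulfide they make. Their promoter windows, 250 bases before to 50 after the annotated gene start, are shown because these 3 genes had the lowest adjusted p against WT. They were read from the R64 genome on the strand of the gene, at chrVI:213062-213361 for MET10, chrX:683236-683535 for MET5 and chrXII:732292-732591 for MET17, with matches to the searched motifs in capitals.
MET10: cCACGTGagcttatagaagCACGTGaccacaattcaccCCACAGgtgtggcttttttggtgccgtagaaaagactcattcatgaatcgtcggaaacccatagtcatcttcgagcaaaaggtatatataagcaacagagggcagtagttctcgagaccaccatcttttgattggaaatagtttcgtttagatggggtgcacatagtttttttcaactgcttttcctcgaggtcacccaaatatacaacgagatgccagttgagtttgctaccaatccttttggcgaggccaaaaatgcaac
MET5: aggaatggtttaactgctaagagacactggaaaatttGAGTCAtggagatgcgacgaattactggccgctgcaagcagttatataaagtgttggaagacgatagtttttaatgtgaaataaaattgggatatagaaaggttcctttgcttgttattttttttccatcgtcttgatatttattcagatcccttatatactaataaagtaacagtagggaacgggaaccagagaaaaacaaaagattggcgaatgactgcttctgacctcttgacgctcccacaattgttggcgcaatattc
MET17: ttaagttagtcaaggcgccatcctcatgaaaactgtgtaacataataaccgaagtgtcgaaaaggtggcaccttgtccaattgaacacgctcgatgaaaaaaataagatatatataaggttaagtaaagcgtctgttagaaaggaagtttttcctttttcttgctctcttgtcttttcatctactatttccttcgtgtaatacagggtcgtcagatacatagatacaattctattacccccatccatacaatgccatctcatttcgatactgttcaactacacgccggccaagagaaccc
Both strands were searched for CACGTG, the core bound by Cbf1, CTGTGG, a core of Met31 and Met32 sites, and TGACTC, the core of Gcn4 sites. MET10 holds CACGTG at 249 and 231 bases before the start and CTGTGG on the opposite strand at 212, with no overlap between them. MET5 holds TGACTC on the opposite strand at 213 bases before the start, and none of the 3 motifs is in this window of MET17. Among the other 7 genes, MET16 holds CACGTG at 178 and TGACTC at 148 bases before the start, MET14 holds CACGTG at 228, and the rest hold none of these letters in the window. CACGTG was in 3 of the 10 windows and in 2.92% of 6001 promoter windows of nuclear protein-coding genes, CTGTGG in 1 and 6.85%, and TGACTC in 2 and 7.98%. The genes with CACGTG in this window did not share 1 pattern of calls: against WT, MET10 rose in 4 mutants, MET14 in 1, and MET16 fell in 1. Sites farther from the start and inexact matches were not searched, so a gene without a match here may still have a site.

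MET10 had 88.2, 86.1 and 97.7 CPM in WT, 145, 149 and 147 in rad6Δ, 146, 154 and 162 in bre1Δ, 109, 99.1 and 109 in P43L. P47T had 110.4, 113 and 98.1 CPM, and E49K had 132, 119 and 130.5 CPM. Every mutant library was above the 3 WT libraries, with rad6Δ and bre1Δ above all point mutants and E49K above P43L and P47T. It rose 1.62-fold in rad6Δ (log2 fold change 0.70 ± 0.07 SE, adjusted p = 1.47e-07), 1.70-fold in bre1Δ (0.77 ± 0.07, adjusted p = 1.19e-07) and 1.41-fold in E49K (0.49 ± 0.07, adjusted p = 7.39e-05). In P47T the difference was smaller (0.25 ± 0.07, adjusted p = 0.0177), a call lost with library totals alone (0.13, adjusted p = 0.29) and without WT replicate 1 or 2 or P47T replicate 1 or 2. In P43L MET10 was at 0.23 ± 0.07 and just missed the threshold (adjusted p = 0.0503). It passed with DESeq2 (adjusted p = 0.029), median-ratio factors (0.0439), no filter (0.0447) or protein-coding genes only (0.0409). It also passed without WT replicate 3 (0.047), without P43L replicate 2 (0.0189) and without the 3 libraries apart on the second component (0.29, adjusted p = 0.00704).

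MET5 had 80.7, 82.7 and 81.9 CPM in WT, 119, 107 and 106 in rad6Δ, 120.4, 147 and 157 in bre1Δ, 106, 87.1 and 102 in P43L. P47T had 104, 97.7 and 92.2 CPM, and E49K had 113, 94.6 and 111 CPM. All mutant libraries were again above WT, but E49K overlapped rad6Δ, P43L and P47T. The gene rose 1.35-fold in rad6Δ (0.44 ± 0.10, adjusted p = 0.000705), 1.73-fold in bre1Δ (0.79 ± 0.10, adjusted p = 1.88e-06) and 1.30-fold in E49K (0.37 ± 0.09, adjusted p = 0.00563). P47T was at 0.26 ± 0.10 (adjusted p = 0.0436), a call lost with library totals alone, with a replicate block (adjusted p = 0.053) and without any single library but P47T replicate 3. P43L was at 0.27 ± 0.10 (adjusted p = 0.0651). It passed without the 3 libraries apart (0.37, adjusted p = 0.00546) and when only the 6 libraries were fitted (0.28, adjusted p = 0.0337). Without P43L replicate 2 it passed too (0.36, adjusted p = 0.0158). Per kilobase, MET10 stood at 1.54 ± 0.107 times MET5 in WT, 1.53 ± 0.138 in bre1Δ and 1.86 ± 0.138 in rad6Δ (mean ratio ± SD, n = 3). The rad6Δ libraries, at 1.70 to 1.94, lay above the WT ones, at 1.45 to 1.66. In E49K the ratio was 1.675 ± 0.0655 (1.63 to 1.75), overlapping both. It was 1.50 ± 0.0758 in P43L and 1.52 ± 0.0767 in P47T.

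MET17, the sulfhydrylase gene, had 219, 213 and 224 CPM in WT, 246, 232 and 256 in rad6Δ, 363, 354 and 484 in bre1Δ, 317, 305 and 315 in P43L. P47T had 336, 321 and 269 CPM, and E49K had 374, 358 and 383 CPM. The rad6Δ libraries were above WT and below those of the other 4 mutants. MET17 rose 1.83-fold in bre1Δ (0.87 ± 0.10, adjusted p = 1.01e-06), 1.70-fold in E49K (0.77 ± 0.10, adjusted p = 1.66e-05), 1.43-fold in P43L (0.51 ± 0.10, adjusted p = 0.00359) and 1.41-fold in P47T (0.50 ± 0.10, adjusted p = 0.000999). In rad6Δ it was at 0.16 ± 0.10 (95% interval −0.05 to 0.37, adjusted p = 0.189), which passed when only the 6 libraries compared were fitted (0.15, adjusted p = 0.0485) and without the 3 libraries apart (0.16, adjusted p = 0.0392). The highest library was bre1Δ replicate 3. Tested directly, MET17 was higher than in rad6Δ in bre1Δ (0.71 ± 0.10, adjusted p = 3.01e-05), E49K (0.60 ± 0.10, adjusted p = 6.26e-05), P43L (0.35 ± 0.10, adjusted p = 0.00524) and P47T (0.34 ± 0.10, adjusted p = 0.0064). A 12-base overlap with the opposite-strand open reading frame YLR302C, which is not among the tested rows, lies within the MET17 gene.

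MET2 (YNL277W, chromosome XIV, 117349 to 118809, plus strand), which encodes the enzyme that makes the carbon acceptor O-acetylhomoserine, was low throughout. It had 4.17, 5.51 and 2.64 CPM in WT, 9.03, 7.15 and 8.99 in rad6Δ, 7.07, 7.98 and 8.29 in bre1Δ, 4.84, 4.29 and 3.95 in P43L. P47T had 3.91, 3.98 and 4.48 CPM, and E49K had 6.90, 6.07 and 8.81 CPM. The libraries fell into a low range, WT, P43L and P47T, and a higher one, rad6Δ, bre1Δ and E49K, with no overlap between them. MET2 rose 1.93-fold in rad6Δ (0.95 ± 0.20, adjusted p = 0.00051), 1.81-fold in bre1Δ (0.85 ± 0.21, adjusted p = 0.00258) and 1.69-fold in E49K (0.76 ± 0.20, adjusted p = 0.00725), the last lost without E49K replicate 3 (adjusted p = 0.0521). It was at 0.02 ± 0.23 in P43L and −0.06 ± 0.22 in P47T. Compared with E49K, MET2 was lower in P43L (−0.74 ± 0.20, adjusted p = 0.00997) and in P47T (−0.82 ± 0.20, adjusted p = 0.00698). Without E49K replicate 3 these became −0.57 (adjusted p = 0.0658) and −0.66 (adjusted p = 0.0505), and the first was also lost without P43L replicate 3.

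MET6 (YER091C, chromosome V, 339864 to 342167, minus strand), the cobalamin-independent methionine synthase gene, went the other way. It had 1529.5, 1470.8 and 1561 CPM in WT, 1085, 975 and 940.1 in rad6Δ, 1219, 1387 and 1652 in bre1Δ, 1666, 1311 and 1666 in P43L. P47T had 1807, 1768 and 1476 CPM, and E49K had 1472, 1404 and 1469 CPM. The 3 rad6Δ libraries were below the other 15. MET6 fell in rad6Δ (−0.60 ± 0.11, adjusted p = 0.000184), while its difference from WT was −0.10 ± 0.11 in bre1Δ. P43L was at 0.03 ± 0.11, P47T at 0.15 ± 0.11 and E49K at −0.07 ± 0.11. None of these 4 was called. Without the 3 libraries apart on the second component, bre1Δ was at −0.23 (adjusted p = 0.0321) and P47T at 0.24 (adjusted p = 0.0254), both past the threshold. Against rad6Δ directly, MET6 was higher in bre1Δ (0.50 ± 0.11, adjusted p = 0.00343), E49K (0.53 ± 0.11, adjusted p = 0.00104), P43L (0.63 ± 0.11, adjusted p = 0.000107) and P47T (0.75 ± 0.11, adjusted p = 1.38e-05). Per kilobase, MET17 stood at 0.248 ± 0.00157 times MET6 in WT, and the ratio was 0.424 ± 0.0407 in rad6Δ, 0.487 ± 0.0402 in bre1Δ, 0.443 ± 0.00659 in E49K, 0.352 ± 0.0429 in P43L and 0.316 ± 0.0041 in P47T. All 15 mutant libraries, at 0.314 or more, were above the 3 WT libraries, at 0.25 or less.

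The sulfate permease genes differed from each other. SUL1 (YBR294W, chromosome II, 789235 to 791814, plus strand) had 2.50, 2.32 and 3.20 CPM in WT, 4.93, 5.32 and 6.95 in rad6Δ, 5.51, 2.96 and 7.70 in bre1Δ, 1.50, 2.37 and 3.21 in P43L. P47T had 2.77, 1.77 and 1.96 CPM, and E49K had 4.96, 2.47 and 5.46 CPM. The rad6Δ libraries were above WT, while replicate 2 of bre1Δ and of E49K lay within the WT range. SUL1 rose in rad6Δ (1.12 ± 0.33, adjusted p = 0.00758) and in bre1Δ (0.97 ± 0.35, adjusted p = 0.0306). The bre1Δ call was lost without WT replicate 1 or 2 or bre1Δ replicate 1, and without bre1Δ replicate 3 the value was 0.67 (adjusted p = 0.163). Leaving out the 3 libraries apart gave the same 0.67 (adjusted p = 0.173). E49K was at 0.72 ± 0.34 (adjusted p = 0.113), and at 1.00 (adjusted p = 0.0326) without E49K replicate 2. Relative to rad6Δ, SUL1 was lower in P43L (−1.25 ± 0.33, adjusted p = 0.00397) and P47T (−1.36 ± 0.33, adjusted p = 0.00184).

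SUL2 (YLR092W, chromosome XII, 323544 to 326225, plus strand) had 22.4, 18.1 and 18.8 CPM in WT and 15.8, 14.6 and 14.4 in P43L, with no overlap. It fell in P43L (−0.41 ± 0.11, adjusted p = 0.0225), a call lost without WT replicate 1 (−0.29, adjusted p = 0.14), P43L replicate 1 or P43L replicate 3. P47T, at 16.3 to 16.6 CPM, was also below WT and did not pass (−0.28 ± 0.11, adjusted p = 0.0639). With library totals alone it did (−0.40, adjusted p = 0.0144), and also without WT replicate 2 (−0.35, adjusted p = 0.04745). SUL2 was at −0.03 ± 0.11 in rad6Δ, 0.21 ± 0.11 in bre1Δ and −0.08 ± 0.11 in E49K, none called. The bre1Δ value passed without WT replicate 1 (0.33, adjusted p = 0.0398). Per kilobase SUL2 stood at 7.26 ± 1.50 times SUL1 in WT and 3.37 ± 0.653 times in rad6Δ. The ranges of 5.66 to 8.62 and 2.85 to 4.10 did not overlap. The ratio was 4.72 ± 2 in bre1Δ (3.21 to 6.99) and 4.70 ± 1.98 in E49K (3.53 to 6.99). Both ranges overlapped those of WT and rad6Δ. P43L was at 6.81 ± 3 and P47T at 7.55 ± 1.59.

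The strain means of the sulfate activation genes had the smallest ranges of the set, 1.26-fold for MET3 and 1.44-fold for MET14. MET3 (YJR010W, chromosome X, 456239 to 457774, plus strand), the ATP sulfurylase gene, had 21.9 to 25.6 CPM in WT and 28.5 to 31.6 in bre1Δ, where it rose (0.32 ± 0.12, adjusted p = 0.0306). That call was lost with library totals alone (0.21, adjusted p = 0.198) and without WT replicate 2 or 3 or bre1Δ replicate 3 (0.28, adjusted p = 0.0909). Without the 3 libraries apart it was lost too (adjusted p = 0.0851). In the other mutants it was between 0.02 ± 0.12 (rad6Δ) and 0.26 ± 0.11 (E49K), none called. The E49K value passed without E49K replicate 2 (0.37, adjusted p = 0.025). MET14 (YKL001C, chromosome XI, 438777 to 439385, minus strand), the adenylylsulfate kinase gene, had 31.8 to 33.0 CPM in WT, 36.7 to 44.2 in bre1Δ and 25.2 to 31.0 in rad6Δ. It rose in bre1Δ (0.30 ± 0.10, adjusted p = 0.0206), lost with library totals alone (0.19, adjusted p = 0.187) and without WT replicate 1 or 2 or bre1Δ replicate 1. In rad6Δ it was at −0.23 ± 0.10 (adjusted p = 0.0632). It was past the threshold when only those 6 libraries were fitted (adjusted p = 0.0406) and without the 3 libraries apart (adjusted p = 0.0435). It also passed there without rad6Δ replicate 1 (−0.32, adjusted p = 0.0208). P47T, at 37.7 to 38.2 CPM, and P43L, at 34.1 to 41.1 CPM, also lay above all WT libraries, and E49K had 28.4 to 33.7 CPM. None of these point mutants was called for MET14. The P47T value passed when only the 6 libraries were fitted (0.24, adjusted p = 0.0361). MET14 was higher in bre1Δ than in rad6Δ (0.53 ± 0.10, adjusted p = 0.000788).

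MET16 (YPR167C, chromosome XVI, 876847 to 877632, minus strand), which encodes the reductase of activated sulfate, had 28.7, 31.0 and 37.9 CPM in WT and 21.1, 26.8 and 21.7 in P43L. These ranges did not overlap, and MET16 fell in P43L (−0.48 ± 0.15, adjusted p = 0.0379). Leaving out WT replicate 2 or 3 or P43L replicate 1 or 3 ended the call (adjusted p = 0.0937 to 0.156). P47T was at −0.30 ± 0.14 (adjusted p = 0.117), and without P47T replicate 3, its highest library at 32.6 CPM, at −0.48 (adjusted p = 0.0145). Without the 3 libraries apart it was at −0.47 (adjusted p = 0.00865), and against rad6Δ P47T was then at −0.38 (adjusted p = 0.0184), also past the threshold. In rad6Δ, bre1Δ and E49K the difference from WT was −0.09 ± 0.14, 0.21 ± 0.14 and −0.20 ± 0.14, none called.

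Direct comparisons between mutants used the same fit. Of the 10 genes, bre1Δ had 4 above rad6Δ and none below (20.8% of all genes called): MET17, MET14, MET6 and MET5 (0.36 ± 0.09, adjusted p = 0.00947). The MET5 call was lost without bre1Δ replicate 3 (0.28, adjusted p = 0.0552) and with library totals alone (0.26, adjusted p = 0.0578). MET10 did not pass between the nulls (0.07 ± 0.07, 95% interval −0.08 to 0.22). P43L had 3 genes above rad6Δ and 5 below (49.1% of all genes called), P47T 3 above and 3 below (52.3%) and E49K 2 above and 1 below (36.9%). MET17 and MET6 were above rad6Δ in all 3 point mutants and MET10 below, the E49K value of MET10 being smallest (−0.21 ± 0.07, adjusted p = 0.0276) and lost without rad6Δ replicate 2 or 3 or E49K replicate 2. With library totals alone, P47T had 5 below rad6Δ, with SUL2 and MET5 added.

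Between point mutants, P43L and P47T had none of the 10 genes called by edgeR, none at an unadjusted p under 0.05 and none by DESeq2, where 31% of all tested genes were called. The differences ran from −0.17 (MET16, 95% interval −0.48 to 0.13) to 0.11 (SUL1, −0.72 to 0.94), and for MET10 the interval was −0.17 to 0.13. P43L was below E49K in 3 genes (25.4% of all genes called): MET10 (−0.26 ± 0.07, adjusted p = 0.0109), MET2 and SUL2 (−0.33 ± 0.11, adjusted p = 0.0328), the last lost with DESeq2 (adjusted p = 0.0555), library totals alone (0.0594) and the 3 libraries apart left out (0.0762). MET16 (−0.37, adjusted p = 0.0394) and MET17 (−0.22, adjusted p = 0.0194) passed in P43L against E49K without those 3 libraries, and MET17 also when only the 6 libraries were fitted (−0.25, adjusted p = 0.029). The count was 1 without P43L replicate 2 or 3 or E49K replicate 3. P47T was below E49K in 2 genes (17.8% of all genes called), MET10 (−0.24 ± 0.07, adjusted p = 0.0241) and MET2. Without E49K replicate 3 neither passed, MET10 was lost without P47T replicate 3 or E49K replicate 1 too, and without the 3 libraries apart (adjusted p = 0.0816), where MET6 passed (0.31, adjusted p = 0.0104). With library totals alone 4 genes passed. SUL1 was at −0.95 ± 0.34 in P47T against E49K (adjusted p = 0.06), and passed with DESeq2 (adjusted p = 0.0375).

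The cultures of a strain differed from one another, and MET5 and MET6 moved together in that spread. After each strain's mean log2 CPM was taken off, this pair had a Pearson r of 0.87 over the 18 libraries (Spearman rho 0.85). It was 0.78 without the 2 libraries farthest out in MET5, and 0.82 over the 15 libraries left without the 3 apart on the second component. Of the 45 pairs, 7 had an r of at least 0.6 in size. SUL1 and MET3 had an r of 0.71 with those 3 libraries and 0.81 without. The other 5 pairs were weaker without them. MET10 and MET6 went from 0.76 to 0.41, MET17 and MET6 from 0.73 to 0.07, MET10 and MET5 from 0.69 to 0.47, MET10 and MET17 from 0.65 to 0.34, and MET16 and MET6 from −0.62 to −0.14. Some pairs passed 0.6 only without the 3 libraries. MET16 and MET10 went from −0.21 to 0.66, and MET3 and MET17 from 0.13 to 0.63. SUL1 and MET17 went from 0.58 to 0.64, and SUL2 and MET17 from 0.54 to 0.64. These pairs were picked by their values, the libraries share their scaling factors, and no test is given. The share of all gene pairs with such an r was not computed, so whether these pairs are unusual cannot be told. With the strain means left in, MET10 and MET6 had an r of −0.48 and MET5 and MET6 −0.12. From the strain mean, MET6 deviated by 0.23 in bre1Δ replicate 3, −0.23 in P43L replicate 2 and −0.18 in P47T replicate 3, and MET5 by 0.16, −0.17 and −0.09. MET16 deviated by −0.11, 0.21 and 0.33 in the same libraries. In bre1Δ replicate 1, MET6 was at −0.21 and MET5 at −0.22, the far end of that strain from replicate 3.

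**Figure D3:**
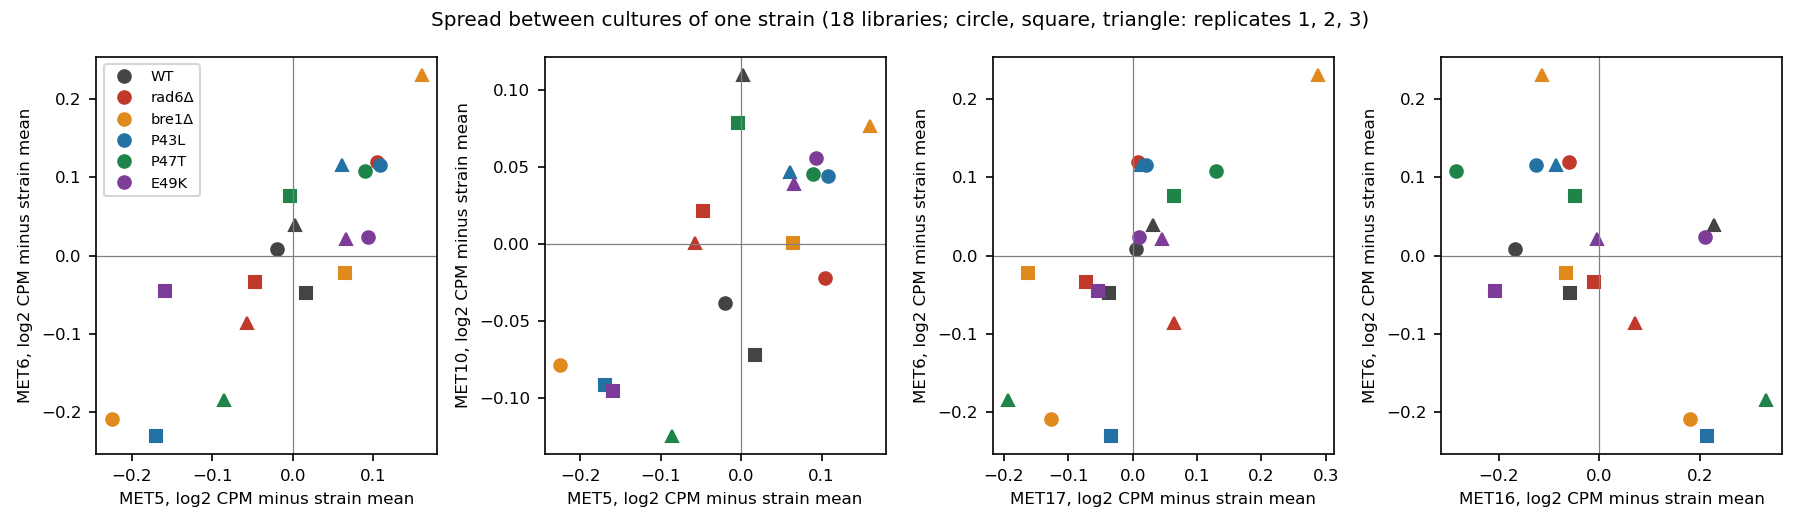
Deviation of log2 CPM from the strain mean for 4 pairs of genes in 18 libraries (colour is strain, symbol is replicate). Points rise together for MET5 with MET6 (r = 0.87, and 0.82 without bre1Δ replicate 3, P43L replicate 2 and P47T replicate 3), while r for MET17 with MET6 is 0.73 with these 3 libraries and 0.07 without.

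Over the 18 libraries with strain means left in, the tested gene most like each member in log2 CPM was in each case one outside the pathway. All genes named here were picked by their values from 5630 tested genes, nearly all of which lie outside the pathway. The matches thus do not show whether a member follows its pathway, and no test is given. For MET6 it was LYS2, of lysine synthesis (r = 0.96), for MET10 TNA1, the nicotinic acid permease gene (0.95, with MET5 at 0.88), and for MET5 the aminopeptidase gene AAP1 (0.91). For MET17 it was GUS1, the glutamyl-tRNA synthetase gene (0.91), and for MET16 ERP2 (0.88). SUL1 was most like PTR3 (0.87), of amino acid sensing, SUL2 like the peptide transporter gene OPT2 (0.85), MET14 like PSA1 (0.82) and MET3 like VEL1 (0.75). MET2 was most like THI11 (0.91), of a family of near-identical thiamine genes whose reads may be shared. Among genes outside the set, DAN1 (0.53), MCH5 (0.51), SES1 (0.50), the cysteine transporter gene YCT1 (0.50) and FRM2 (0.50) had the highest mean r over the 10 members.

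A list of 35 other sulfur pathway genes, all tested, was read beside the 10. It had 12 rises and 6 falls in rad6Δ, 12 and 4 in bre1Δ, 1 and 1 in P43L, 10 and 2 in P47T, and 7 and 3 in E49K. Its median log2 fold changes were 0.12, 0.08, 0.02, 0.15 and 0.09, against −0.02 to 0.00 over all genes. The genes called made up 51.4% of the list in rad6Δ and 45.7% in bre1Δ, near the shares of all genes called there, 49.7% and 44.4%. In P43L they were 5.71% beside 12.1%, in P47T 34.3% beside 27.9%, and in E49K 28.6% beside 31.3%.

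In rad6Δ, the 5 genes of the S-adenosylmethionine cycle went both ways, 2 up and 2 down, and 1 of the 3 folate genes, MET13, fell. SAM2, one of a pair of S-adenosylmethionine synthetase genes, fell from a mean of 654 to 209 CPM (−1.65 ± 0.09, adjusted p = 3.28e-12). Its similar copy SAM1 was at 0.16 ± 0.10 (adjusted p = 0.162, and 0.0451 when only the 6 libraries were fitted), and how reads common to both were counted is not given in the sources used here. The methylenetetrahydrofolate reductase gene MET13 fell from 318 to 167 CPM (−0.92 ± 0.09, adjusted p = 5.25e-08), and SAH1, which clears S-adenosylhomocysteine, from 1807 to 1057 CPM (−0.77 ± 0.13, adjusted p = 5.92e-05). The homocysteine methyltransferase genes SAM4 (0.34 ± 0.08, adjusted p = 0.00111) and MHT1 (0.75 ± 0.19, adjusted p = 0.00295) rose. GSH1, of glutathione synthesis, fell by 0.49 ± 0.08 (adjusted p = 5.62e-05). MMP1, the S-methylmethionine permease gene, rose from 5.61 to 13.5 CPM (1.25 ± 0.18, adjusted p = 8.61e-06), and JLP1, of sulfonate use, from 7.02 to 13.1 CPM (0.88 ± 0.13, adjusted p = 1.29e-05).

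In bre1Δ, SAM2 and MET13 also fell (−0.43 ± 0.08 and −0.47 ± 0.09, adjusted p = 0.000291 and 0.000315), and each was lower in rad6Δ than in bre1Δ when tested (SAM2 1.22 ± 0.08 higher in bre1Δ, adjusted p = 1.08e-09). The rises with the lowest adjusted p were YCT1 (0.66 ± 0.10), the homocysteine methyltransferase gene SAM4 (0.46 ± 0.08), the cystathionine gamma-lyase gene CYS3 (0.72 ± 0.13) and the aspartate kinase gene HOM3 (0.51 ± 0.09). Siroheme synthesis, on which sulfite reductase depends, rose in both of its genes in bre1Δ, MET1 (0.46 ± 0.13, adjusted p = 0.00796) and MET8 (0.54 ± 0.20, adjusted p = 0.0304). The MET1 call was lost without WT replicate 1 (adjusted p = 0.051), and the MET8 call when WT replicate 1 or 2, or bre1Δ replicate 1 or 2, was dropped, with library totals alone (adjusted p = 0.098) and with only the 6 libraries compared (adjusted p = 0.0521). In rad6Δ, MET1 rose (0.62 ± 0.13, adjusted p = 0.000358) and MET8 did not pass (0.45 ± 0.19, adjusted p = 0.053). MET8 also rose in P47T (0.54 ± 0.19, adjusted p = 0.0372), lost with library totals alone and without any single library but WT replicate 3. These siroheme genes are named after their values were seen.

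Among point mutants, P43L had 2 calls on the list, SAM2 down (−0.28 ± 0.08, adjusted p = 0.0336) and MMP1 up (0.64 ± 0.19, adjusted p = 0.0345). SAM2 missed the threshold after removal of each of the 6 libraries in turn, and with a replicate block (adjusted p = 0.0505). The MMP1 call was lost without WT replicate 1 or 3 or P43L replicate 1 or 3, with library totals alone (adjusted p = 0.05) and with only the 6 libraries compared (adjusted p = 0.0782). Without the 3 libraries apart, more genes of the list passed in P43L. SAM3 (0.72, adjusted p = 0.000162), CYS3 (0.35, adjusted p = 0.00458), MUP1 (0.42, adjusted p = 0.0347) and HOM6 (0.22, adjusted p = 0.0393) were up. SOA1 was down (−0.43, adjusted p = 0.0453). SAM3 also passed with DESeq2 (adjusted p = 0.012) and without P43L replicate 2 (adjusted p = 0.0209). In P47T the homoserine branch gene HOM3 rose by 0.57 ± 0.09 (adjusted p = 0.000181). Calls of the other two genes of that branch were less stable. HOM2 (0.58 ± 0.19, adjusted p = 0.0324) was lost without WT replicate 1 or 2 or P47T replicate 1 or 2. HOM6 (0.29 ± 0.09, adjusted p = 0.024) was lost with library totals alone (adjusted p = 0.104) and without any single library but P47T replicate 3. P47T also raised SAM4 (0.47 ± 0.08), the methionine permease gene MUP1 (0.80 ± 0.14, adjusted p = 0.000593), the S-adenosylmethionine permease gene SAM3 (0.79 ± 0.19) and the cystathionine beta-synthase gene CYS4 (0.32 ± 0.08). GSH1 fell there by 0.32 ± 0.08 (adjusted p = 0.00763), lost without P47T replicate 1 (adjusted p = 0.0556). E49K raised CYS3 (0.72 ± 0.12, adjusted p = 0.000325), the cystathionine beta-lyase gene STR3 (0.48 ± 0.11), HOM3 (0.39 ± 0.09), SAM4 (0.31 ± 0.08) and SAM3 (0.66 ± 0.18, adjusted p = 0.0144), and lowered GSH1 (−0.35 ± 0.08). The SAM3 call was lost without WT replicate 2 or E49K replicate 3.

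Among the 7 regulators, changes against WT were called in the nulls and, for MET30, in E49K. CBF1 fell in rad6Δ (−0.28 ± 0.08, adjusted p = 0.00567) and in bre1Δ (−0.41 ± 0.08, adjusted p = 0.000424). MET4 rose in rad6Δ by 0.19 ± 0.07 (adjusted p = 0.0332), lost with library totals alone and without WT replicate 1 or 2 or rad6Δ replicate 2 or 3. MET32, at 9 to 35 counts per library, rose in rad6Δ (0.98 ± 0.33, adjusted p = 0.0169), lost without WT replicate 1 or 2. MET30 rose in rad6Δ (0.21 ± 0.08, adjusted p = 0.0384), lost with DESeq2, with library totals alone, with only the 6 libraries compared and without any single library but rad6Δ replicate 3. In E49K MET30 also rose (0.30 ± 0.08, adjusted p = 0.00853), lost without WT replicate 1 and with library totals alone (adjusted p = 0.0665). GCN4, the activator of amino acid synthesis that is controlled mainly in translation, rose in rad6Δ (0.27 ± 0.09, adjusted p = 0.0162), lost without WT replicate 2 or 3 or rad6Δ replicate 1, and in bre1Δ (0.38 ± 0.09, adjusted p = 0.0019). MET28 and MET31 were not called against WT, with differences from −0.40 to 0.14 and from −0.33 to 0.21. Without the 3 libraries apart, MET28 passed in P47T (−0.52, adjusted p = 0.0152) and GCN4 in E49K (0.22, adjusted p = 0.0232), GCN4 there also with DESeq2 (adjusted p = 0.0291) and with only the 6 libraries compared (adjusted p = 0.0303).

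**Figure D4:**
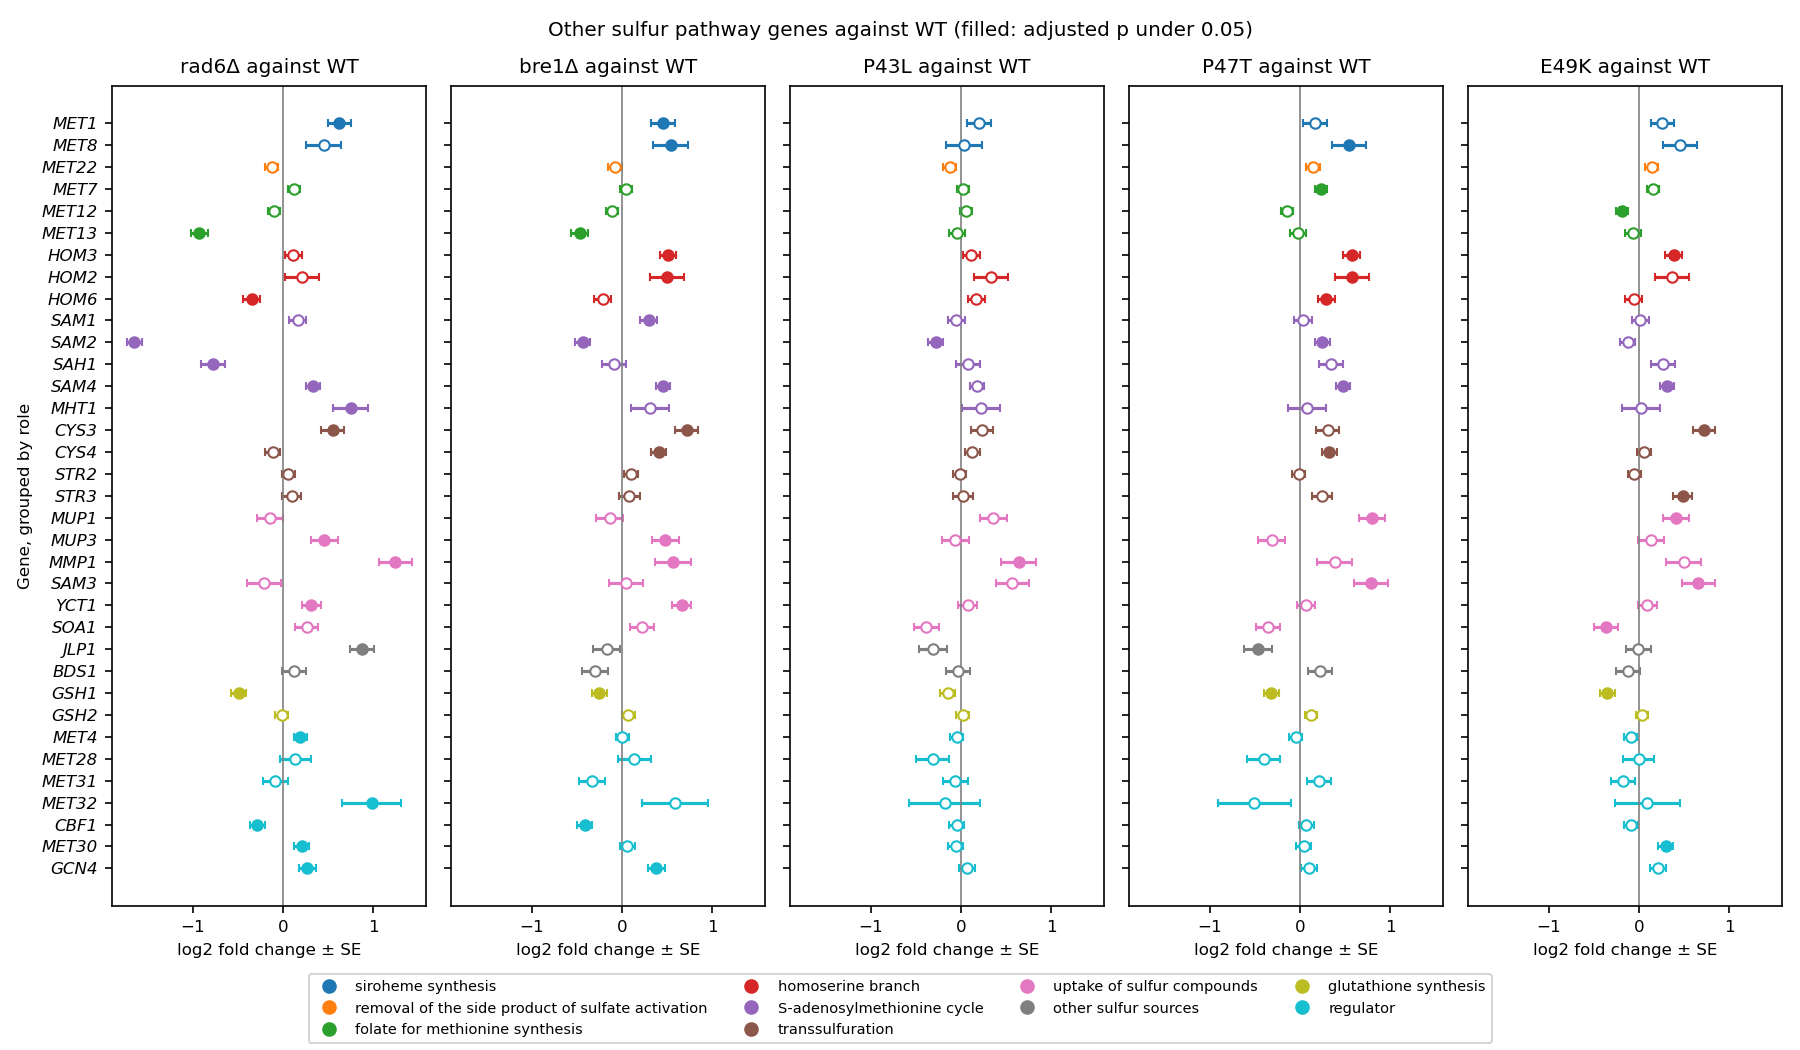
Log2 fold change against WT (x axis, ± SE) of 35 other sulfur pathway genes, coloured by role, 1 panel per mutant; filled points passed the adjusted threshold. SAM2 at −1.65 and MET13 at −0.92 in rad6Δ lie farthest to the left, and MMP1 in rad6Δ at 1.25 farthest to the right.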

How the data were processed

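RNA from 18 cultures, 3 for each of 6 strains, was read as single 50-base reads from stranded, poly(A)-selected libraries, per the labels' protocols. The authors deposited raw counts, whole reads per gene and library; the submitters' processing notes name cutadapt 1.16, STAR 2.6.1b, featureCounts 1.6.3 and DESeq2 1.20, and, as genome builds, sacCer3 and R64. Whether counting used strand, and how reads with several matches were treated, is not given in the sources used here. Of the gene identifiers, 5633 are locus tags of the R64 annotation, 90 match one of its symbols and 23 match neither. The 3 empty lines and the deposited rlog values were not used here.

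Counts were filtered with filterByExpr of edgeR 4.0.16 (R 4.3.3), leaving 5630 of 5746 genes, and scaled by TMM factors of 0.896 to 1.07. One robust quasi-likelihood model held all 18 libraries, with 12 residual degrees of freedom and a biological coefficient of variation of 8.55%, and 12 comparisons were tested two-sided, each adjusted over all tested genes by the Benjamini-Hochberg method at 0.05. Standard errors are the log2 fold change over the root of F, and intervals are 95%. Log2 CPM for correlations used a prior count of 2. The test was tried on counts simulated with the same spread for every gene and no library apart from its strain. That trial does not cover the uneven spread of these libraries. No pair of replicates agreed within counting noise, with chi-square values of 6.25 to 39.9 per degree of freedom. P-values set a strain difference against the spread between these cultures. With 1 strain per genotype, they do not cover the spread between separately made strains.

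Alternatives were library totals alone, median-ratio factors, DESeq2 1.42.0, no filter, only the compared libraries, a replicate block, protein-coding genes only, and each library left out. Leaving out 3 libraries together was chosen after seeing the data. The 10 genes and the lists were chosen with earlier results of these data known. The genes named beyond the 10 and the 7 regulators are the called genes of the list with the lowest adjusted p, at most 6 a comparison, and the genes most alike in pattern. Outside this rule, MET1, MET8, SAM1, SAM4 and MHT1 in rad6Δ, and HOM2 and HOM6 were named after their values were seen. So were SAM3, CYS3, MUP1, HOM6 and SOA1 in P43L.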

Additional observations from a re-analysis of the deposited data

How the results depend on the processing

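The counts of the 10 genes called in each comparison were compared under 7 other settings, each library left out in turn, and 1 setting added after seeing the data. No called gene of the 10 or of the other sulfur genes changed sign. In P47T against E49K, 4 genes were called with library totals alone and 4 when only the 6 libraries compared were fitted, against 2. With the 3 libraries apart on the second component left out, 5 were called in P43L and 5 in P47T against WT, where 3 were called in each. Leaving out 1 library gave 5 to 6 calls in rad6Δ, 4 to 7 in bre1Δ, 1 to 5 in P43L, 1 to 4 in P47T and 3 to 6 in E49K against WT. Against rad6Δ it gave 3 to 4 in bre1Δ, 7 to 8 in P43L, 6 to 7 in P47T and 2 to 4 in E49K. Between point mutants it gave 0 for P43L and P47T, 1 to 4 for P43L and E49K, and 0 to 3 for P47T and E49K. The repeat numbers of the labels did not pair the samples: 4 of 18 libraries correlated best with their own number, and correlations within a number ran from −0.42 to 0.29. With a replicate block the P47T count against WT was 2 (MET5 lost), and 1 call was lost and 3 were gained over the 12 comparisons. All genes called in P43L against WT numbered 683, and from 193 to 1109 when 1 library was left out. SUL1, MET2, MET8, MHT1 and MET32, with under 100 counts in every library, limit what could be detected.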
